A study of Homo sapiens with 32 samples.

Results

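The regions described here carried an N6-methyladenosine (m6A) peak in both libraries of PANC-1 cells labelled as a CFL1 knockout and no peak in the METTL3 knockout or control lists. PANC-1 is a cell line established from a human pancreatic ductal carcinoma. The members were chosen from the calls themselves. A CFL1 knockout peak on chromosomes 1 to 22, narrower than 2000 bp, had to share at least 1 bp with a peak of the other CFL1 knockout library and none with any METTL3 knockout or control peak, and overlapping peaks were joined into 1 region. This gave 5791 CFL1-only regions, made of 10873 peaks, out of 40450 CFL1 knockout regions found in both libraries and 168125 regions when all 3 lists were joined. Of the 82574 CFL1 knockout peaks found in both libraries, 13.2% met the rule, and 14.3% of the regions held a CFL1-only region. Without library 3 or 5, and so with no second call asked for, 16315 and 23379 regions would qualify. Since the rule fixed these numbers, and every value of a peak comes from the same calls, none of them was tested.

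The groups were KO CFL1, KO METTL3 and Control cells, each with 2 antibody samples and 2 inputs of total RNA, and no agent or other allele is given for them in the labels. Of 32 samples with labels, the 12 behind the 3 peak lists were used. The treatment label of the antibody samples reads m6A in both knockouts and none in control. The peak names show that each list joins 2 libraries called separately, numbered 3 and 5 in each knockout and 1 and 2 in control. The labels do not say whether a knockout is 1 clone or a pool, and the knockout peak names carry the letters si, whose meaning no label states. Separate cultures are not mentioned in the labels, and p-values then measure only a spread that may be technical. Read depth cannot be had from the lists.

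m6A is a methyl mark on adenosines of RNA. It is laid down by a nuclear complex whose catalytic subunit is METTL3, removed by the demethylases FTO and ALKBH5, and read by proteins of the YTH family, which affect the splicing, export, decay and translation of the marked RNA. CFL1 encodes cofilin 1, which severs and depolymerises actin filaments and helps to carry actin into the nucleus. The title of the series links CFL1 to m6A on RNA of super enhancers, which are dense clusters of enhancers beside highly transcribed genes. The lists hold no RNA levels, so a site without a called peak and a site whose RNA was scarce cannot be told apart, nor can loss of either protein be checked.

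By median, CFL1-only peaks were narrower and weaker than CFL1 knockout peaks shared with both other groups. Their median widths were 301 bp in library 3 and 266 bp in library 5, against 536 and 564 bp. The joined regions had a median width of 369 bp, with quartiles of 260 and 542 bp, and the widest reached 2348 bp. In library 3 the 5342 member peaks had a median −log10 q of 7.94 (quartiles 4.24 and 14.8, highest 140.02) and a median fold enrichment of 4.27. In library 5 the 5531 member peaks had a median −log10 q of 6.63 (quartiles 3.80 and 11.8, highest 99.5) and a median fold of 4.09. The −log10 q measures the strength of the evidence for a peak, the fold its height over the background used by the peak caller. Both are the authors' values. CFL1 knockout peaks that also had a METTL3 knockout and a control peak were stronger, with medians of 28.5 in library 3 and 39.1 in library 5. Peaks shared with the METTL3 knockout alone had medians of 12.8 and 13.1, and peaks shared with control alone 8.51 and 8.69, in library 3 and 5.

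Of the 5791 regions, 4951 (85.5%) held member peaks of both libraries. Overlap between the libraries was a condition of the rule. Within it, the summits lay a median of 41 bp apart, and 56.7% lay within 50 bp of each other. For regions shared with both other groups the median was 22 bp and the share within 50 bp 66.2%. Across the 4951 regions the correlation of log10 of −log10 q between the libraries was 0.48, against 0.80 over 22242 regions shared with both other groups. This is a description across regions that share 2 libraries. The −log10 q was higher in library 3 in 60.1% of the CFL1-only regions and in 31.5% of the regions shared with both groups.

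**Figure D1:**
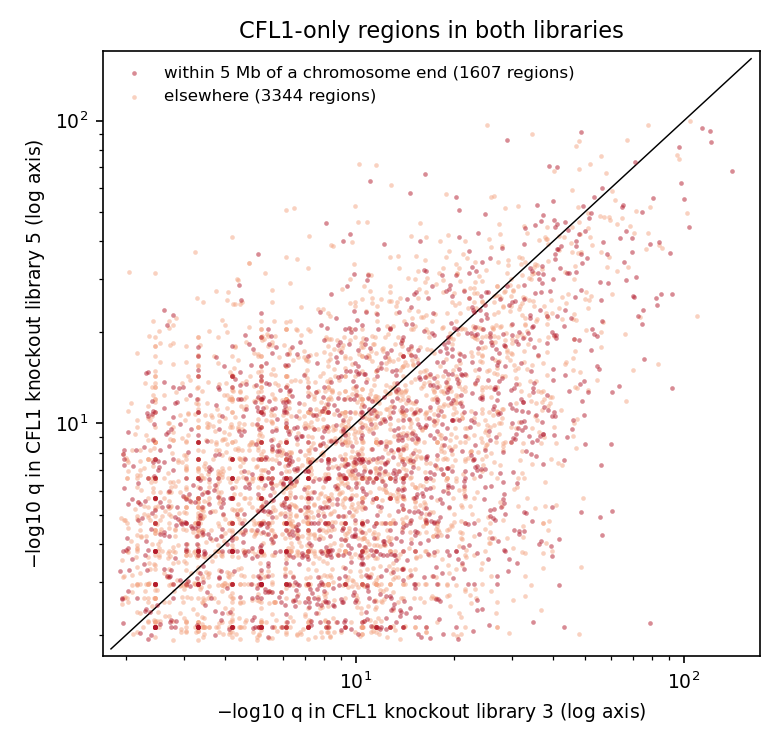
The −log10 q of the 4951 CFL1-only regions with member peaks of both CFL1 knockout libraries, library 3 on the horizontal and library 5 on the vertical axis, both logarithmic, with the line of equal values, the 1607 regions within 5 Mb of a chromosome end in dark red and the others in light orange. Most points lie under 10 in at least 1 library, they scatter widely about the line, and values repeat as rows and columns of points at the weak end.

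The other 840 regions (14.5%) held member peaks of 1 library only, 336 of library 3 and 504 of library 5. There the overlapping peak of the other CFL1 knockout library did not itself meet the rule. It touched a METTL3 knockout peak in 370 regions, a control peak in 181 and both in 274, and in the remaining 15 it was 2000 bp or wider. These 840 regions therefore meet the rule by the limits of 1 peak, not of the whole site.

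A −log10 q of 10 or more in both libraries was reached by 1022 CFL1-only regions, 20 or more by 331, and 50 or more by 25. The same rule applied to the METTL3 knockout gave 4982 METTL3-only regions, made of 11.4% of its peaks found in both libraries. Applied to control it gave 23642 control-only regions, made of 44.3% of such peaks. The median −log10 q in the weaker library was 4.79 in CFL1-only, 4.26 in METTL3-only and 5.24 in control-only regions. Their median widths were 369, 331 and 355 bp, in the same order. At 10 or more in both libraries the shares were 20.6% of CFL1-only, 20.6% of METTL3-only and 25.01% of control-only regions with peaks of both libraries. The order depended on the level: at 5 or more they were 48.7%, 42.8% and 52.4%, in the same order. At 50 or more there were 25 of 4951 CFL1-only regions (0.505%), against 71 of 4414 METTL3-only regions (1.61%) and 324 of 22649 control-only regions (1.43%). The highest value in the weaker library was 99.5 for CFL1-only, 204.6 for METTL3-only and 275.02 for control-only regions. These 3 sets were each chosen from the calls, so the differences are descriptions.

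The 12 CFL1-only regions with the highest −log10 q in the weaker library are the ones named first. Of these, 6 lay on chromosome 17, which held 6.84% of all CFL1-only regions. The strongest was a narrow region at chr17:48217561-48217764, with a −log10 q of 104.5 in library 3 and 99.5 in library 5. Its fold was only 3.24 and 3.31, so the evidence was strong although the enrichment was low. The nearest METTL3 knockout peak was 936 bp away (−log10 q 33.0) and the nearest control peak 3839 bp away (14.8). Its summits in the 2 libraries were 5 bp apart.

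Next came chr19:1147356-1147597, with a −log10 q of 113.6 in library 3 and 94.4 in library 5 and folds of 8.78 and 7.59. A pair of neighbouring regions on chromosome 17 followed. At chr17:79424257-79424588 the −log10 q was 120.2 in library 3 and 92.4 in library 5, and at chr17:79425601-79426147 it was 120.7 and 84.8. METTL3 knockout peaks lay 433 and 173 bp from this pair, with a −log10 q of 10.7 and 5.61. The nearest control peak, 1673 bp from the second region, was strong, with a −log10 q of 178.3. The same control peak was the nearest to both, so the pair stood beside a control peak stronger than either of them.

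The region at chr17:80303292-80303764 had the highest fold of the 12, with 24.2 in library 3 and 14.7 in library 5, at a −log10 q of 96.8 and 82.0. Its nearest METTL3 knockout peak, 734 bp away, had a −log10 q of 3.36. At chr10:81067050-81067305 the −log10 q was 77.8 in library 3 and 96.6 in library 5. It was 95.2 and 77.2 at chr17:39976738-39977243, where a METTL3 knockout peak (143 −log10 q) lay 609 bp away and a control peak (167 −log10 q) 620 bp away. At chr11:72423367-72423769 the −log10 q was 96.2 and 74.7, and the nearest peaks of the other lists were weak, at 3.64 in the METTL3 knockout and 3.35 in control.

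The remaining 4 were chr17:869925-870853, chr1:2235648-2235953, chr3:126751975-126752369 and chr13:114884743-114885943. Library 3 gave them a −log10 q of 70.9, 140.02, 67.1 and 97.9, and library 5 gave 73.0, 68.1, 86.2 and 62.3. The region on chromosome 1 differed most between the libraries, and the one on chromosome 17 least. The region on chromosome 3 lay 215 bp from a METTL3 knockout peak of 154.7 and 232 bp from a control peak of 299 (−log10 q). Of the 12 regions, 9 had a peak of another list within 1 kb, and 7 lay within 5 Mb of a chromosome end. Each count includes both regions of the neighbouring pair on chromosome 17. Among all 1022 members with a −log10 q of 10 or more in both libraries, the shares were 47.6% and 38.6%, in the same order.

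Among the 1022 strong members, those with 10 or more in both libraries, the 4 with the highest fold in the weaker library were all over 2 kb from the nearest peak of another list. At chr8:27122978-27123813 the fold was 22.4 in library 3 and 27.7 in library 5, and the nearest METTL3 knockout and control peaks were 14304 and 21208 bp away. At chr3:9598877-9599280 it was 17.8 and 25.2, with the nearest control peak 60138 bp away. The others were chr1:38361196-38362082, with 18.9 and 17.7, and chr19:1445469-1446550, with 19.2 and 16.2. Their folds were far above the member medians of 4.27 in library 3 and 4.09 in library 5.

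The 4 members farthest from any other peak, again among the 1022, were between 211 and 554 bp wide. The farthest was chr7:67733915-67734141, 793105 bp from a METTL3 knockout and 916746 bp from a control peak, with a −log10 q of 11.6 in library 3 and 10.9 in library 5. The others were chr9:84960045-84960255 (13.9 and 10.9), chr7:15237687-15237898 (21.6 and 12.8) and chr9:121440450-121441003 (28.0 and 38.4). The 4 widest were chr17:34748512-34750859, chr14:105337103-105339072, chr16:1423980-1425873 and chr14:105339226-105341115, between 1890 and 2348 bp. The pair on chromosome 14 were neighbours. Library 3 gave the first of them a −log10 q of 91.7 and library 5 only 26.7.

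The width limit left out few sites. Only 9 CFL1 knockout peaks of 2000 bp or more met the rest of the rule. The widest peaks inside the limit measured 1997, 1932 and 1895 bp, with a −log10 q of 30.1, 32.5 and 10.8, and the narrowest outside measured 2099, 2108 and 2145 bp, with 37.9, 38.3 and 29.5.

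The nearest peak of either list that lacked a member lay a median of 1049 bp away, with quartiles of 315 and 3743.5 bp. The median distance was 1706 bp to the nearest METTL3 knockout peak and 2570 bp to the nearest control peak. A peak of either list lay within 1 kb of 2848 members (49.2%, exact 95% interval 47.9% to 50.5%) and within 100 bp of 404 (6.98%). The METTL3 knockout peak was the nearer in 60.3% of members and the control peak in 39.6%. Only 677 members (11.7%) were over 10 kb from both lists and 105 (1.81%) over 100 kb. METTL3-only regions stood farther from control peaks, at a median of 5390.5 bp, but lay a median of 2448 bp from CFL1 knockout peaks. Control-only regions lay a median of 5569.5 bp from CFL1 knockout and 5712.5 bp from METTL3 knockout peaks. The lists hold different numbers of peaks, so these distances do not share a scale.

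**Figure D2:**
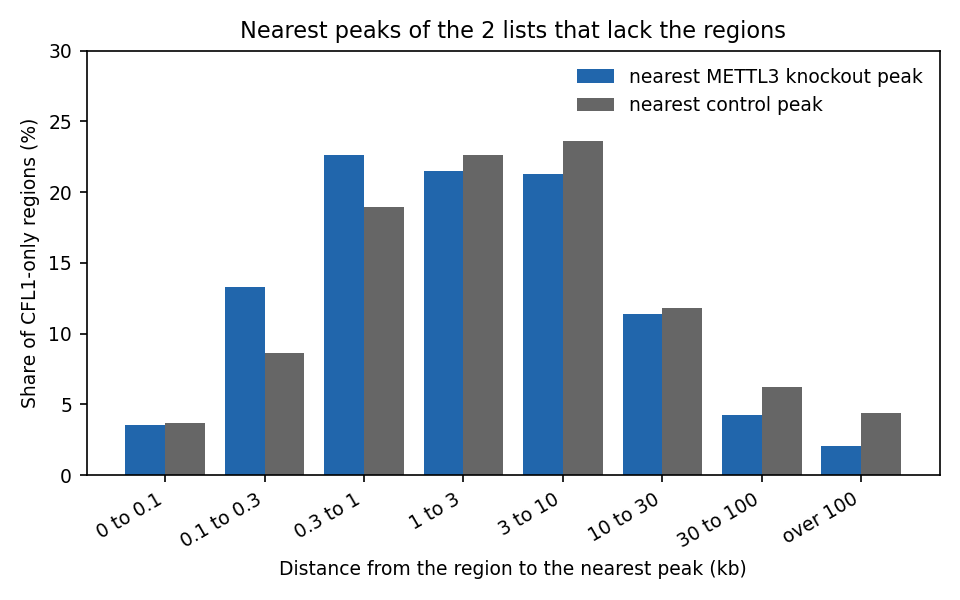
Share of the 5791 CFL1-only regions (vertical axis, %) by the distance in kb to the nearest METTL3 knockout peak (blue) and nearest control peak (grey). Distances of 0.1 to 1 kb are more common to the METTL3 knockout list and distances over 30 kb more common to the control list.

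Within 50 kb of a member peak, itself and its partner included, there was a median of 24 CFL1 knockout peaks, 16 METTL3 knockout peaks and 16 control peaks. Around CFL1 knockout peaks shared with control only these medians were 22, 16 and 20, around those shared with the METTL3 knockout only 18, 16 and 14, and around those shared with both 17, 15 and 19. Members thus resembled the peaks shared with control only in the number of CFL1 knockout peaks around them. Joined at 10 kb, 2264 members (39.1%) fell into 825 groups of 2 or more, 145 of these groups held at least 4 members, and 3527 members stood alone. Another region of the same kind lay within 10 kb of 39.1% of CFL1-only, 21.5% of METTL3-only and 71.1% of control-only regions. These sets differ in size, and the largest had the highest share.

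The groups with most members lay near chromosome ends. One at chr16:1204123-1248591 held 12 members in 44469 bp. In that stretch CFL1 knockout libraries 3 and 5 had 33 and 16 peaks, METTL3 knockout libraries 3 and 5 had 2 and 3, and control libraries 1 and 2 had 1 and 3. Since the stretch was picked for its members, more CFL1 knockout peaks there follow from the choice. A group at chr12:133104700-133149170 also held 12 members, among 23 and 21 CFL1 knockout peaks, 10 and 10 METTL3 knockout peaks and 5 and 7 control peaks. The third, with 11 members at chr19:1127625-1161931, contained the second strongest region and had 21 and 19 CFL1 knockout peaks, 6 and 7 METTL3 knockout peaks and 8 and 8 control peaks.

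CFL1-only peaks were concentrated toward the ends of chromosomes, a property that the rule did not use. Distance was measured from base 1 or from the last base covered by any list, whichever was nearer. Within 5 Mb of an end lay 33.7% of the 10873 CFL1-only peaks (exact 95% interval 32.8% to 34.6%), against 12.6% of METTL3-only peaks (11.9% to 13.3%) and 10.5% of control-only peaks (10.2% to 10.8%). These intervals hold for counting error alone, as neighbouring peaks depend on each other. The median distance from an end was 15.3 Mb for CFL1-only, 32.8 Mb for METTL3-only and 30.3 Mb for control-only peaks. Within 2 Mb lay 21.2%, 6.65% and 5.33%, in the same order. Without CFL1 knockout library 3 or 5, when no call in a second library was asked for, the excess of CFL1-only over METTL3-only peaks was 10.4 and 12.2 percentage points, against 21.1 with both.

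The member peaks of the CFL1 knockout libraries lie at the same sites by the rule, so their shares are not separate evidence. The share of member peaks within 5 Mb was 33.3% in library 3 and 34.1% in library 5, whereas it was 18.5% and 18.8% among peaks shared with both other groups. Peaks shared with the METTL3 knockout alone had 21.0% and 21.6%. Peaks shared with control alone stood between, with 29.0% and 29.3%. Seen the other way, 1977 of 8799 CFL1 knockout regions within 5 Mb of an end held a CFL1-only region (22.5%), against 3804 of 31651 elsewhere (12.02%).

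**Figure D3:**
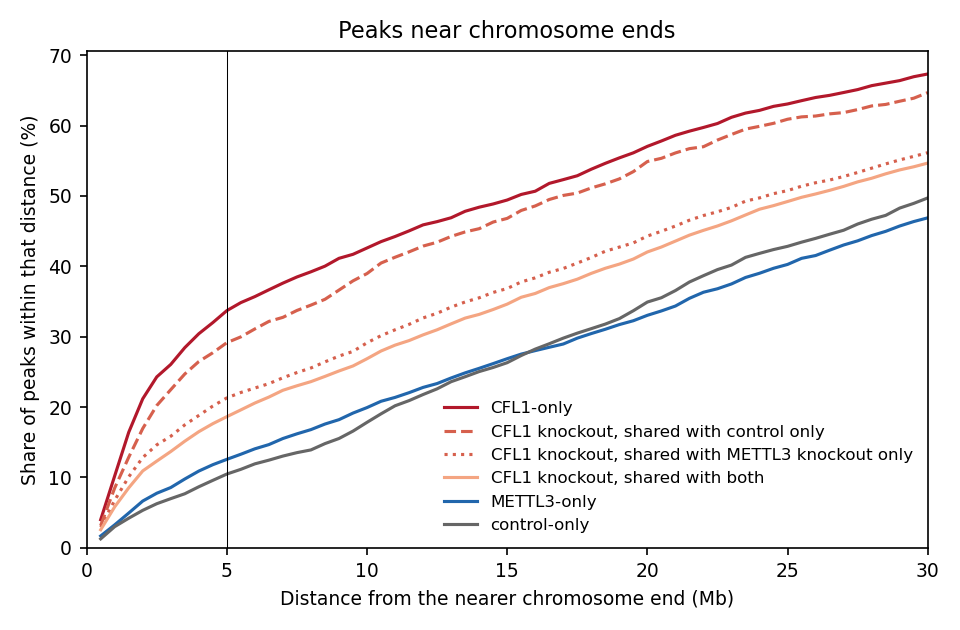
Share of peaks (vertical axis, %) within a given distance of the nearer chromosome end (horizontal axis, Mb) for the CFL1-only peaks, the CFL1 knockout peaks shared with control only, with the METTL3 knockout only or with both, and the METTL3-only and control-only peaks. The vertical line marks 5 Mb, where the CFL1-only curve stands at 33.7% and the METTL3-only and control-only curves at 12.6% and 10.5%.

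The pattern was not limited to weak peaks. Among CFL1-only peaks with a −log10 q under 5, 30.3% lay within 5 Mb of an end, and the share was 32.6% from 5 to 10, 36.2% from 10 to 20, and 40.7% from 20 up. METTL3-only peaks had 10.9%, 12.8%, 13.5% and 15.7% in the same bands, and control-only peaks 10.6%, 10.7%, 10.8% and 9.24%. At every strength the CFL1-only share was the highest of the 3. CFL1 knockout peaks shared with control only had lower shares that also rose with strength, at 24.6%, 28.2%, 29.7% and 38.0%. From 20 up their exact interval, 33.9% to 42.4%, overlapped that of CFL1-only peaks, 38.2% to 43.3%. From the weakest to the strongest band, peaks shared with the METTL3 knockout only went from 18.2% to 23.6%, and peaks shared with both from 17.2% to 19.1%.

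A smaller difference of the same direction was present among all peaks of the libraries. Within 5 Mb of an end lay 21.0% and 20.003% of the peaks of CFL1 knockout libraries 3 and 5, 16.6% and 17.0% of METTL3 knockout libraries 3 and 5, and 14.4% and 14.1% of control libraries 1 and 2. Without the CFL1-only, METTL3-only and control-only peaks, which leaves in peaks seen in a single library, the values were 19.98% and 18.6%, 17.0% and 17.4%, and 16.2% and 15.7%. The CFL1 knockout libraries averaged 19.3% ± 0.948, METTL3 knockout libraries 17.2% ± 0.294 and control libraries 16.0% ± 0.308 (SD, n = 2), so the libraries of the 3 groups did not overlap. CFL1 knockout exceeded the mean of the other 4 libraries by 2.74 percentage points (two-sided exact permutation of libraries, p = 0.0667, the smallest that 15 splits allow). The design cannot give a lower p, and the ends were examined after the files had been seen. The peaks left in were also chosen by the overlaps that the rule used, so this p decides nothing about the ends. The removal took unequal parts, 13.2%, 11.4% and 44.3% of the CFL1 knockout, METTL3 knockout and control peaks found in both libraries. Among peaks that overlapped a peak of both other groups, in either library of each, the CFL1 knockout shares were the lowest. The shares were 18.3% and 18.2% for the CFL1 knockout, 18.6% and 18.9% for the METTL3 knockout, and 18.7% and 18.7% in control. There the CFL1 knockout differed from the mean of the other 4 libraries by −0.499 percentage points (two-sided exact permutation of libraries, p = 0.0667). These peaks were kept because they overlapped both other groups, so the libraries were compared at largely common sites. This p therefore decides nothing about the ends either.

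**Figure D4:**
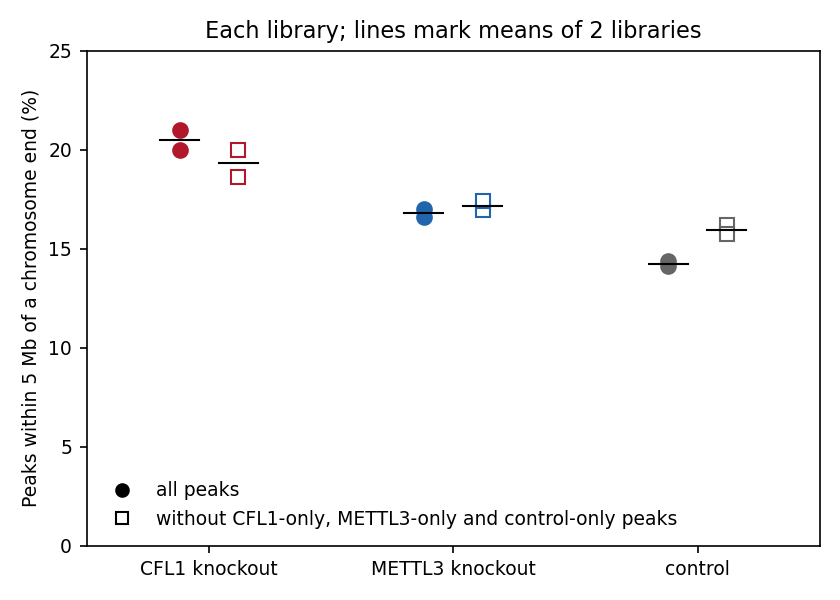
Share of the peaks of each library within 5 Mb of a chromosome end (vertical axis, %), with 2 libraries a group and short lines at their mean. Filled circles count all peaks and open squares leave out the CFL1-only, METTL3-only and control-only peaks. Both CFL1 knockout libraries lie above the other 4 in either count.

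The concentration was found at most, but not all, chromosome ends. Of the 39 ends with a CFL1 knockout region, 30 held more CFL1-only than METTL3-only regions. The totals were 1981 CFL1-only, 632 METTL3-only and 2510 control-only regions, from sets of 5791, 4982 and 23642. The share of CFL1 knockout regions holding a member was above the 14.3% of the whole genome at 28 of the 39 ends. This share depends on how many peaks the other lists hold. The ends with the most CFL1-only regions were the low ends of chromosomes 19 (148 CFL1-only and 42 METTL3-only regions), 16 (147 and 28), 1 (125 and 24) and 11 (112 and 25), low meaning the end where coordinates start. These counts also follow how many CFL1 knockout regions an end has: the share was 25.9% at the low end of chromosome 19 and 22.5% at that of 16, against 22.5% over all ends. The highest share was 33.7%, at the high end of chromosome 22, where 90 of 267 regions held a member. The low ends of chromosomes 18 (1 and 5) and 6 (10 and 17) and the high end of chromosome 5 (22 and 27) had fewer CFL1-only than METTL3-only regions.

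By window of 1 Mb, the most members lay on chromosome 16 from 1000001 to 2000000, where 49 regions were CFL1-only, 4 METTL3-only and 16 control-only. There the CFL1 knockout libraries had 245 and 198 peaks, the METTL3 knockout libraries 134 and 138, and the control libraries 119 and 119. The windows named here were picked for their members or member share, so more CFL1 knockout peaks in them follow from the choice. Chromosome 11 from 1000001 to 2000000 had 47 CFL1-only regions, 4 METTL3-only and 1 control-only. This was also the window with the highest share of CFL1 knockout regions holding a member, at 45.2%. Its peaks numbered 208 and 154 for CFL1 knockout libraries, 87 and 96 for METTL3 knockout libraries, and 47 and 52 for control libraries. The window before it, from 1 to 1000000, had 47 CFL1-only, 9 METTL3-only and 50 control-only regions, so there CFL1-only and control-only regions were about equally many. On chromosome 22, the shares were 44.6% from 46000001 to 47000000 and 43.9% from 47000001 to 48000000. Windows with at least 10 members numbered 134 and held 43.7% of all members.

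Chromosomes differed in the share of their CFL1 knockout regions that held a member. It was highest on chromosomes 22 (21.7%, exact 95% interval 19.4% to 24.2%), 19 (18.7%, 17.3% to 20.05%) and 16 (18.3%, 16.7% to 19.9%), and lowest on chromosome 6 (9.27%, 8.001% to 10.7%). Over 5 Mb from both ends it was 18.2% on chromosome 22, 17.6% on chromosome 19 and 14.2% on chromosome 16. On chromosome 6 it was 9.03%, so the order of these 4 held away from the ends. The share was then lower on chromosomes 18 (8.10%), 5 (8.54%), 13 and 21 than on chromosome 6. On chromosome 13 it was 12.8% over the whole chromosome but 7.58% away from the ends, and on chromosome 21 it was 15.0% and 8.60%. The member share of peaks on chromosome 22 was 19.1% in library 3 and 19.97% in library 5, and on chromosome 6 it was 8.51% and 8.82%, counted over sites that the rule makes common to both libraries. Chromosome 19 held 10.3% of CFL1-only, 4.74% of METTL3-only and 7.03% of control-only regions.

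**Figure D5:**
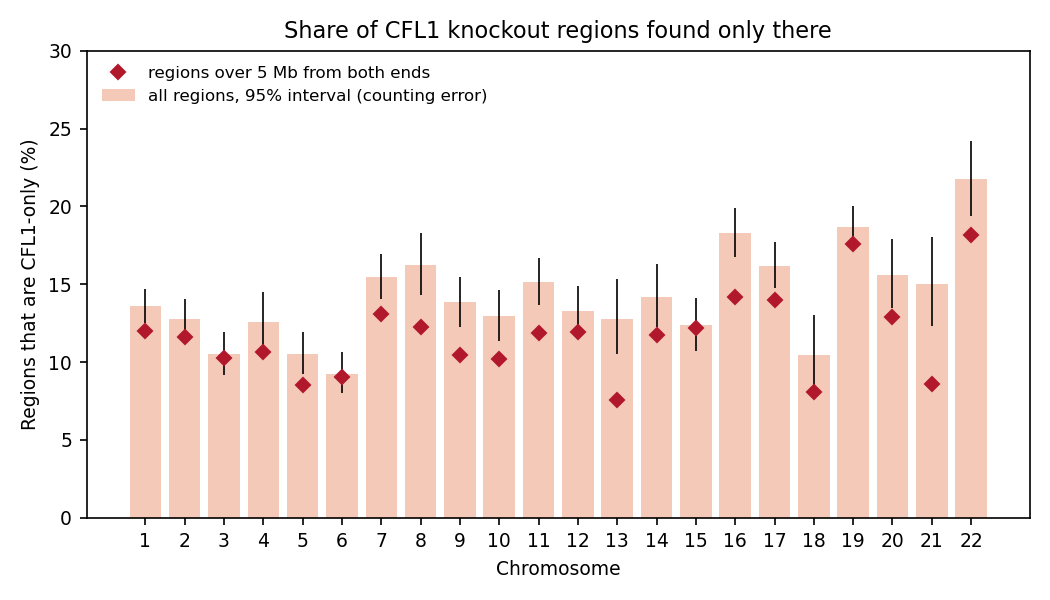
Share of CFL1 knockout regions found in both libraries that hold a CFL1-only region (vertical axis, %) by chromosome. Bars give all regions with exact 95% intervals for counting error, and diamonds the regions over 5 Mb from both ends. Chromosomes 22, 19 and 16 are highest, and on chromosomes 13 and 21 the diamonds lie far below the bars.

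The peak names give a second view of absence. Within each library the numbers in the names rose with position along every chromosome, at 100% of steps, and numbers were missing, so called peaks had been taken out of the lists by a criterion that no label states. CFL1 knockout libraries 3 and 5 lacked 50.2% and 42.0% of their numbers, METTL3 knockout libraries 3 and 5 lacked 44.0% and 41.8%, and control libraries 1 and 2 lacked 22.5% and 28.6%. Where the peaks on both sides of a member have consecutive numbers, no peak was taken out between them. This was so for 41.4% of members in METTL3 knockout library 3 and 41.5% in library 5, and for 56.0% in control library 1 and 49.2% in control library 2. Consecutive numbers were more common over all steps between neighbouring peaks of a library. Their share was 66.1% in METTL3 knockout libraries 3 and 5, 79.7% in control library 1 and 74.96% in control library 2. The part of gap length in this difference was not tested.

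In all 4 of these libraries together, 786 members (13.6%) had no missing number, among them 225 of the 1022 strong ones. For the other 5005 members, the lists do not show whether a peak had been called and taken out. The 786 had a median −log10 q of 12.7 in library 3 and 8.95 in library 5, against 7.52 and 6.39 in the others, but a lower median fold, 3.30 and 3.04 against 4.58 and 4.27. They lay closer to other peaks, at a median of 517.5 bp against 1224 bp, and a short gap between flanking peaks leaves less room for a missing number. The part of this gap length in the count was not tested. Within 5 Mb of a chromosome end lay 43.5% of the 786 (exact 95% interval 40.01% to 47.1%) and 32.7% of the others. Counting the missing numbers as well, 17.1% and 17.4% of the numbers of the CFL1 knockout libraries fell within 5 Mb of an end, against 14.6% and 15.0% in the METTL3 knockout and 14.3% and 13.7% in control. Of the strongest 12, 4 had no missing number in any of the 4 libraries, namely both of the pair on chromosome 17, chr17:48217561-48217764 and chr17:39976738-39977243.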

How the data were processed

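Peaks are those the authors deposited as 3 lists in narrowPeak form. STAR, MACS2 and bedtools and the build hg19 are named per the submitters' processing notes, without versions, settings or the background of the calls. The authors' values per peak are a fold enrichment (a ratio), a −log10 q, a summit position and a score. The score was not used. Read depth is unknown from these files, and no reads, inputs or genome of that build were used, so genes are not named.

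Libraries were taken from the peak names. The rule was applied in Python 3.11.15 and gave the same 5791 regions with bedtools 2.31.1. The overlap code was tested on simulated data. The strength of a region in a library is that of its strongest member peak. The value in the weaker library, and any count in both libraries, needs member peaks of both. Exact intervals are Clopper-Pearson at 95%. Regions named are the 12 with the highest −log10 q in the weaker library and, among those with at least 10 in both, the 4 with the highest fold, the widest 4 and the 4 farthest from other peaks, with the 3 largest groups and the leading 1-Mb windows. The 3 peaks on each side of the width limit are also given. The members, the lists and these choices were made with earlier results of these data known. The chromosome ends and missing numbers were examined after the files had been seen. Coordinates are 1-based.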

Additional observations from a re-analysis of the deposited data

How the results depend on the processing

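No paired analysis was possible because peak names number the libraries differently from the labels, and the results come from no fit. The number of CFL1-only regions was 5791 and the share of CFL1 knockout regions holding one 14.3%. Asking for no peak within 100 bp gave 13.6%, and within 1000 bp 3092 regions and 7.64%. An overlap of 50% of the shorter peak gave 16.2% and an uncovered summit 17.9%. A −log10 q from 5 up left 2858 regions and 8.98%, from 10 up 1213 and 5.05%, and a fold of at least 4 left 2317 and 9.89%. A width under 1000 bp gave 15.0%. With no width limit the number was 5783, and with chromosome X added 5952. Without each library in turn the number ran from 6113 to 23379 and the share from 15.1% to 33.8%. The number was 16315 without CFL1 knockout library 3 and 23379 without library 5, when no call in a second library was asked for.

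Without each library the median −log10 q ran from 4.27 to 5.15, the median fold from 3.69 to 4.09, the median width from 223 to 375 bp, and the share of members with a peak of another list within 1 kb from 32.7% to 47.7%. That share was 55.4% with an overlap of 50% and 55.3% with −log10 q from 10 up. METTL3-only regions numbered 2937 with no peak within 1000 bp and 1011 with −log10 q from 10 up, and 5285 to 14993 without each library. Control-only regions numbered 5930 with −log10 q from 10 up, and 24411 to 40012 without each library.

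The chromosome-end alternatives were chosen after seeing the data. The CFL1-only share within 5 Mb was 29.7% with no peak within 1000 bp, 39.99% with −log10 q from 10 up, 43.3% for peaks with no missing number, 32.8% for members of both libraries, and 23.2% to 33.6% without each library. It was lowest without CFL1 knockout library 3 (23.2%) and library 5 (24.98%), when peaks of 1 library entered. Its excess over METTL3-only peaks, 21.1 percentage points, was 14.5 within 2 Mb, 22.7 within 10 Mb and 24.5 with −log10 q from 10 up, and 10.4 to 21.0 without each library. No alternative reversed a direction. The causes of these shifts were not tested. Leaving out a CFL1 knockout library also dropped the second call, and both changes cannot be told apart. Alternatives for the DRACH motif and for genes were not run, since a genome or annotation of the build was not used here.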

Other observations

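Many peaks had exactly the same fold and −log10 q as another peak of their library. Among CFL1-only peaks this held for 81.3% in library 3 and 78.1% in library 5, against 60.8% and 53.9% of CFL1 knockout peaks shared with both other groups. The members with repeated values had a median −log10 q of 6.69 in library 3 and 5.65 in library 5. Within 5 Mb of a chromosome end lay 30.4% and 31.3% of the member peaks with a repeated value and 46.0% and 44.1% of those with a value of their own.

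In both knockouts, fewer peak numbers were missing near chromosome ends than elsewhere. Within 5 Mb of an end, 37.5% and 32.2% of numbers were missing in CFL1 knockout libraries 3 and 5, against 52.5% and 43.8% elsewhere. METTL3 knockout libraries 3 and 5 had 35.4% and 33.6% near ends and 45.2% and 43.1% elsewhere, and control libraries 1 and 2 had 21.4% and 26.0% near ends and 22.6% and 29.0% elsewhere. The part of this removal in the position of the CFL1-only peaks was not tested.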
